A study of Homo sapiens with 6 samples.

Results

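The liver serpin genes described here are 9 genes that encode serine protease inhibitors, or proteins of the same fold, secreted by hepatocytes: SERPINA1, SERPINA3, SERPINA5, SERPINA6, SERPINA10, SERPINC1, SERPIND1, SERPINF2 and SERPING1. They were chosen by symbol, as the rows that the authors' annotation gave to one of these genes in 4 lists of regions enriched in chromatin immunoprecipitation sequencing (ChIP-seq). These rows numbered 268 of 271336 in all, and the 9 genes stood among 16428 genes with a region in at least 1 list. A region was assigned to 8 of the 9 genes. SERPING1, the gene of the C1 inhibitor of the complement and contact systems, had no region in any of the 4 lists, by symbol or by location.

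The lists came from untreated HepG2 cells, a human hepatoma line, of 2 kinds. SHP-1 KO cells carried a CRISPR deletion of the phosphatase SHP-1, encoded by PTPN6, and SHP-1 WT cells did not. The paper describes clonal lines of both kinds. It does not say whether untransfected or nontargeting control cells served as WT in ChIP-seq. For each kind of cell there was 1 library with an antibody to RPB1, the largest subunit of RNA polymerase II, 1 with an antibody to RPB1 phosphorylated on serine 2 of its C-terminal repeats (pSer2 RPB1), and 1 input library used by the authors as background. With 1 library for each antibody and cell type, no difference between WT and KO could be tested, and the depth of the libraries is unknown. The sources do not say which clone was used for ChIP-seq, and clone and genotype cannot be told apart.

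Serpins trap a target protease by a loop that the protease cuts, after which the inhibitor changes shape and holds the enzyme covalently. The liver is the main source of those in plasma, where they restrain neutrophil enzymes, coagulation, fibrinolysis and complement, and a few, such as the corticosteroid carrier encoded by SERPINA6, no longer inhibit a protease. RNA polymerase II is usually found at highest density near the start of an active gene, and serine 2 phosphorylation builds up on polymerases that elongate towards its end. RPB1 occupancy at the start and pSer2 RPB1 in the body of a gene are therefore read together.

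Of the genes with a region, 5 lay in the serpin cluster of chromosome 14, within 344 kb (hg38, chr14:94280460-94624053), and SERPINC1, SERPIND1 and SERPINF2 lay on chromosomes 1, 22 and 17. Promoter sequence from RefSeq (GRCh38.p14) was held for 6 of the 9 genes, and not for SERPINC1, SERPINF2 or SERPING1. The stretch from 140 to 41 bases before the transcript start is shown for 5 genes, in each of which the strongest RPB1 region spanned the start in both kinds of cell, and for SERPINA1 also at its upstream alternative start, where only WT cells had a region. All are written 5′ to 3′ on the strand of the gene, and capitals mark each match to GTTAAT, a short site of the hepatocyte factor HNF1 that covers 1 arm of its palindrome, on either strand. SERPINA3, whose strongest RPB1 region also spanned its start, was searched and is not shown because part of that stretch is annotated as a UTR.
SERPINA1, hepatocyte start, chr14:94388643-94388742, minus strand: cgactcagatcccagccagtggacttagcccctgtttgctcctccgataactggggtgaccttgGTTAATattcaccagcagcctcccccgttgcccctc
SERPINA1, upstream start, chr14:94390676-94390775, minus strand: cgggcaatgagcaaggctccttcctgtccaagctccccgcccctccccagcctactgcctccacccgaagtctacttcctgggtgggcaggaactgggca
SERPINA6, chr14:94323377-94323476, minus strand: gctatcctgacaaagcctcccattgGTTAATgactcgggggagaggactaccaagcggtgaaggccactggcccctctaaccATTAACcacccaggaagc
SERPINA10, chr14:94293309-94293408, minus strand: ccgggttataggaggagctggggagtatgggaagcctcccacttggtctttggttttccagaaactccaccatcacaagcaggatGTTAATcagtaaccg
SERPINA5, chr14:94581286-94581385, plus strand: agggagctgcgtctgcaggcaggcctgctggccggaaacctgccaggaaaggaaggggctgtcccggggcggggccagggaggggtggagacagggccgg
SERPIND1, chr22:20773973-20774072, plus strand: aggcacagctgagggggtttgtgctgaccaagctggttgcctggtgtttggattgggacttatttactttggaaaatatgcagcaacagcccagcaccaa

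In the 250 bases before the main transcript start, the HNF1 letters GTTAAT occurred in 3 of the 6 genes with a sequence, SERPINA1, SERPINA6 and SERPINA10, against 6.23% of all 35114 promoters of the same length. Its first base lay at -76 in SERPINA1 and -55 in SERPINA10, and at -170, -115 and -58 in SERPINA6. The forkhead (FOXA) letters TGTTTAC occurred in SERPINA6 alone of the 6 genes, at -150, against 2.98% of promoters. The STAT letters TTCNNNGAA occurred in SERPINA6 at -195 and in SERPINA5 at -220, against 6.57%. None of the 6 genes held the TATA box TATAAA (10.7% of promoters), the HNF4 letters CAAAGTCC (1.02%) or the C/EBP letters TTGCNNAA (9.05%) in this stretch. SERPINA10 has a second start 212 bp past the main one, and the C/EBP letters occurred at -217 from that second start. Both strands were searched, none of the matches overlapped another, and a match is a description of the letters only.

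RPB1 was enriched at the start of all 8 genes that had a region, in WT as in KO cells, and in each gene the strongest region lay there. The summit, the base with the highest signal in a region, lay between 122 bp before and 242 bp after the start of the MANE Select transcript, the reference transcript of a gene. A region of the authors' promoter class was present in 8 of 8 genes in both lists, while 86.3% of all genes with a region had one in WT cells and 87.9% in KO cells. In SERPINA1, SERPINA3 and SERPINA10 the summit lay in the first intron, just past a short first exon. SERPINA10 has a second annotated start 212 bp past the main one, and its summits lay 233 bp past the main start in WT and 242 bp in KO cells. In SERPINA6 and SERPINF2 it lay in the first exon, in the 5′ UTR, in both kinds of cell.

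Between genes the height of this start region ranged widely. The value used is the enrichment over input that MACS2 gives for a region's summit, as a fold, and the rank is the place of the region in its own list, of 46045 RPB1 regions in WT and 41605 in KO cells. SERPINA1, which encodes alpha-1 antitrypsin, the inhibitor of neutrophil elastase, had the highest value in both lists, 67.2 in WT (rank 519) and 64.8 in KO cells (rank 197). SERPINF2, the gene of alpha-2 antiplasmin, reached 66.5 (rank 550) and 37.3 (rank 1671), and SERPINA6 reached 43.5 (rank 2630) and 16.6 (rank 7408). These were the 3 strongest of the 8 genes in WT cells, whereas in KO cells SERPINA3 stood above SERPINA6.

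The other 5 genes had start regions between 9.15 and 20.7. SERPINA3, the acute-phase inhibitor alpha-1 antichymotrypsin, had 19.2 in WT and 19.5 in KO cells. SERPINA5, the protein C inhibitor, had 20.7 and 15.2, and SERPINA10, the protein Z-dependent protease inhibitor that acts on factor Xa, had 18.2 and 13.8. SERPIND1 and SERPINC1, which each encode a heparin-activated thrombin inhibitor, were the lowest of the 8 in both lists. SERPIND1, heparin cofactor II, had 11.1 and 9.5, and SERPINC1, antithrombin, had 9.31 and 9.15. Neighbours in this order could not be told apart by a test, since no value has a replicate.

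**Figure D1:**
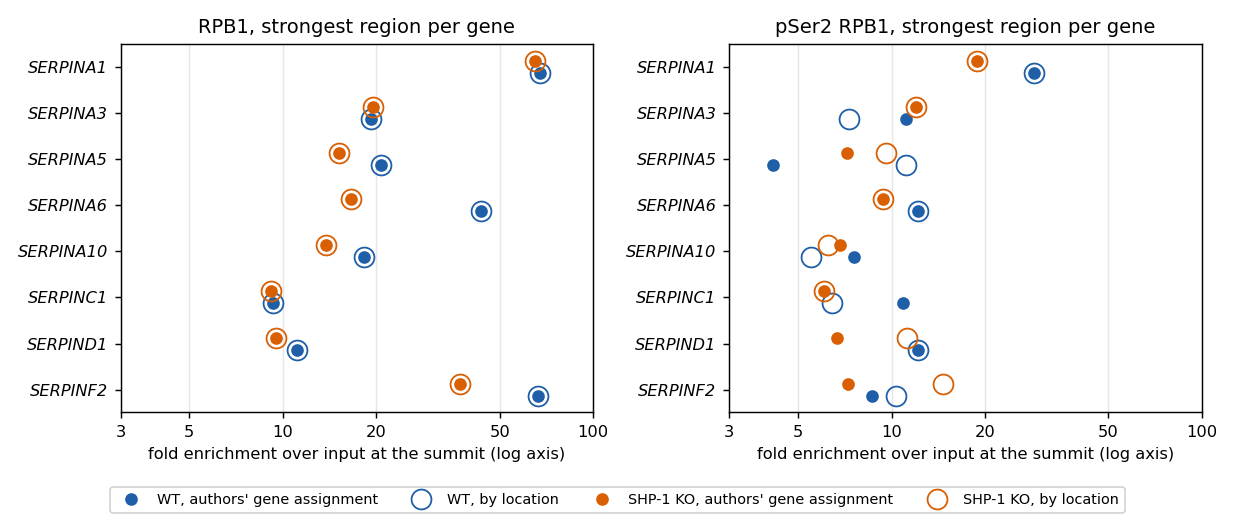
Fold enrichment over input (log axis) of the strongest region of each gene for RPB1 (left) and pSer2 RPB1 (right), in 1 WT library (blue) and 1 SHP-1 KO library (orange) each. Filled points use the authors' gene assignment and open circles the regions within 3000 bp of the gene. For RPB1 every filled point lies in its circle, with the widest gap between cells at SERPINA6 (43.5 and 16.6), whereas for pSer2 RPB1 filled points and circles part at 6 genes in at least 1 kind of cell.

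SERPINA6, the gene of corticosteroid-binding globulin, showed the largest difference in RPB1 between the cells. Its ratio of KO to WT was 0.383, which stood at percentile 2.72 of the ratios of the 12877 genes with an RPB1 region in both lists. The region at the start was also shorter in KO cells, 1784 bp (chr14:94322176-94323959) against 4779 bp in WT cells (chr14:94319533-94324311). In the last part of the gene, WT cells had 5 weak regions of 3.44 to 5.37 that were given to SERPINA6, and KO cells had 1 region of 9.5. Further WT regions there, of 6.96 and 4.52, had been given to SERPINA10, and no KO region overlapped them. An intronic region about 5.8 kb into the gene was present in both, at 11.4 in WT and 8.3 in KO cells.

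SERPINF2 was the only other gene below the limit of 1/1.5, with a ratio of 0.56, at percentile 18.2 of all genes. The ratios of the remaining 6 were 0.733 for SERPINA5, 0.757 for SERPINA10, 0.858 for SERPIND1, 0.963 for SERPINA1, 0.983 for SERPINC1 and 1.02 for SERPINA3. Thus 2 of 8 genes were at least 1.5-fold lower in KO cells, while 36.1% of all genes were, and none was at least 1.5-fold higher, against 2.68%. The median ratio was 0.807 for the 8 genes and 0.742 over all genes, and 5 of the 8 genes lay above the median over all genes. Relative to the median over all genes, the ratios ran from 0.516 for SERPINA6 to 1.37 for SERPINA3, and only SERPINA6 remained beyond 1.5-fold.

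**Figure D2:**
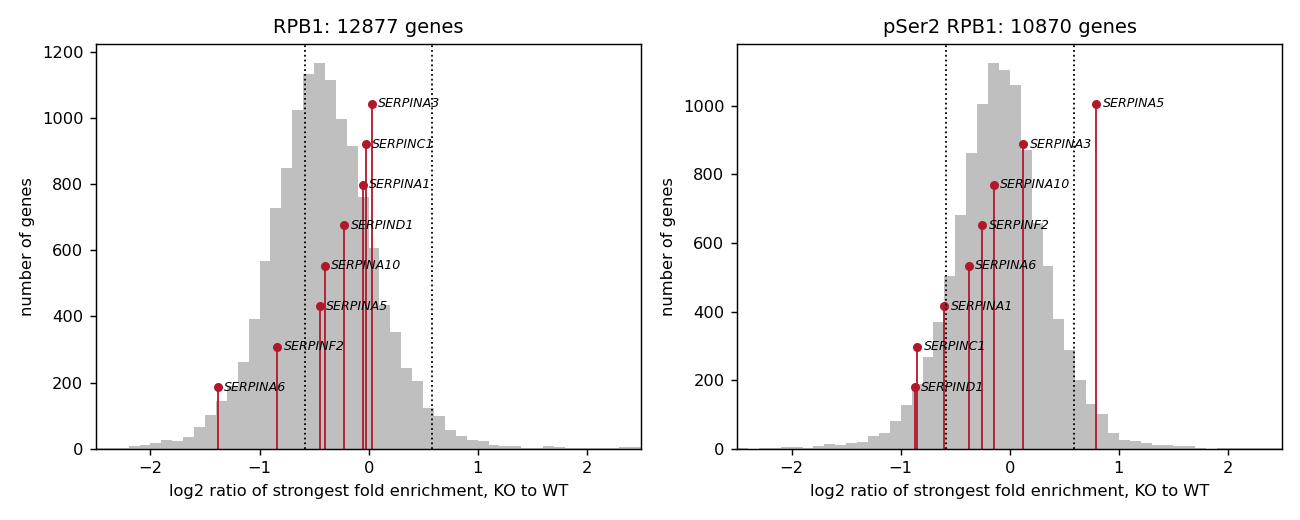
Number of genes by log2 ratio of the strongest fold enrichment, KO to WT, for RPB1 (left, 12877 genes) and pSer2 RPB1 (right, 10870 genes), in bins of 0.1, with the 8 serpin genes as red lines whose heights only separate the names. Dotted lines mark 1.5-fold in either direction. SERPINA6 and SERPINF2 lie left of the lower limit for RPB1, and SERPIND1, SERPINC1 and SERPINA1 for pSer2 RPB1 under the authors' gene assignment.

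Of all genes with an RPB1 region in WT cells, 9.09% had none in KO cells, and for pSer2 RPB1 14.7%. None of the 8 serpin genes lost all of its regions for either antibody. At the level of single regions, 52 of the 73 RPB1 regions of the serpin genes in WT cells (71.2%) overlapped an RPB1 region of KO cells, against 61.9% of the whole list. In the other direction 54 of 64 (84.4%) did so, against 74.9%. For pSer2 RPB1 the shares were 48 of 62 (77.4%) against 52.2% for WT regions, and 60 of 69 (87.0%) against 69.9% for KO regions. These regions share genes and are not independent of each other.

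RPB1 regions were often shared between the antibodies as well. In WT cells 54 of 73 RPB1 regions (74.0%) overlapped a pSer2 RPB1 region, against 58.9% of the list, and in KO cells 44 of 64 (68.8%) did so, against 58.2%. Fewer RPB1 regions given to the serpin genes were of the promoter class than in the whole lists. The shares were 24.7% against 44.6% in WT and 28.1% against 47.4% in KO cells. For pSer2 RPB1 the order was the opposite, 32.3% against 23.9% in WT and 29.0% against 25.1% in KO cells. The class does not give the place of the summit. Long pSer2 RPB1 regions of the promoter class had summits past the gene's end, at 102% (WT) and 101% (KO) of SERPINA1 and 107% (KO) of SERPINA3. The other RPB1 regions lay mostly in gene bodies by the authors' classes, but not always in the serpin gene they were given to. In WT cells 25 of 73 RPB1 regions, and in KO cells 21 of 64, lay over 3000 bp from that gene's reference transcript. For pSer2 RPB1 the counts were 11 of 62 and 18 of 69. SERPINA3 had 12 of its 22 RPB1 regions in WT and 14 of 23 in KO cells beyond this distance, all before its start. The shares and overlaps above include these regions. The pSer2 RPB1 regions of the serpin genes had a median length of 696 bp in WT and 462 bp in KO cells, while the medians of the whole lists were 350 and 357 bp.

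SERPINA1 differed from the other genes in that a single RPB1 region covered it from end to end. This region ran over 14333 bp in WT (chr14:94375273-94389605) and 13599 bp in KO cells (chr14:94375561-94389159), and by length it ranked 20 and 19 in the lists. One pSer2 RPB1 region covered the gene likewise, over 13912 bp in WT and 13688 bp in KO cells. Its fold enrichment of 28.7 in WT cells was rank 44 of 102674 regions, and its 18.9 in KO cells was rank 215 of 81012, a ratio of 0.66. The 2 antibodies peaked at opposite ends of the gene. The RPB1 summit lay 113 bp past the start in WT and 122 bp in KO cells, and the pSer2 RPB1 summit lay 12035 and 11988 bp past it, at 102% and 101% of the transcript's length.

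Upstream of the hepatocyte start of SERPINA1, WT cells had weak RPB1 regions of 3.53 and 5.79. The one of 5.79 lay over the alternative start printed above, and the one of 3.53 between the 2 starts. KO cells had none that overlapped them. A KO region of 4.2 lay nearer the hepatocyte start (chr14:94389223-94389631) and overlapped the long WT region. The ranks of 43015 and 21860 placed the 2 weak WT regions in the lower and middle part of the WT list. A group of 3 RPB1 regions lay 5.5 to 7.6 kb before the hepatocyte start in both cells. They had 2.83, 6.43 and 6.59 in WT cells and 3.51, 6.15 and 6.8 in KO cells, and they overlapped between the lists. GENCODE places another transcribed unit, ENSG00000289541, at these summits, so that their assignment to SERPINA1 rests on the nearest annotated start.

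**Figure D3:**
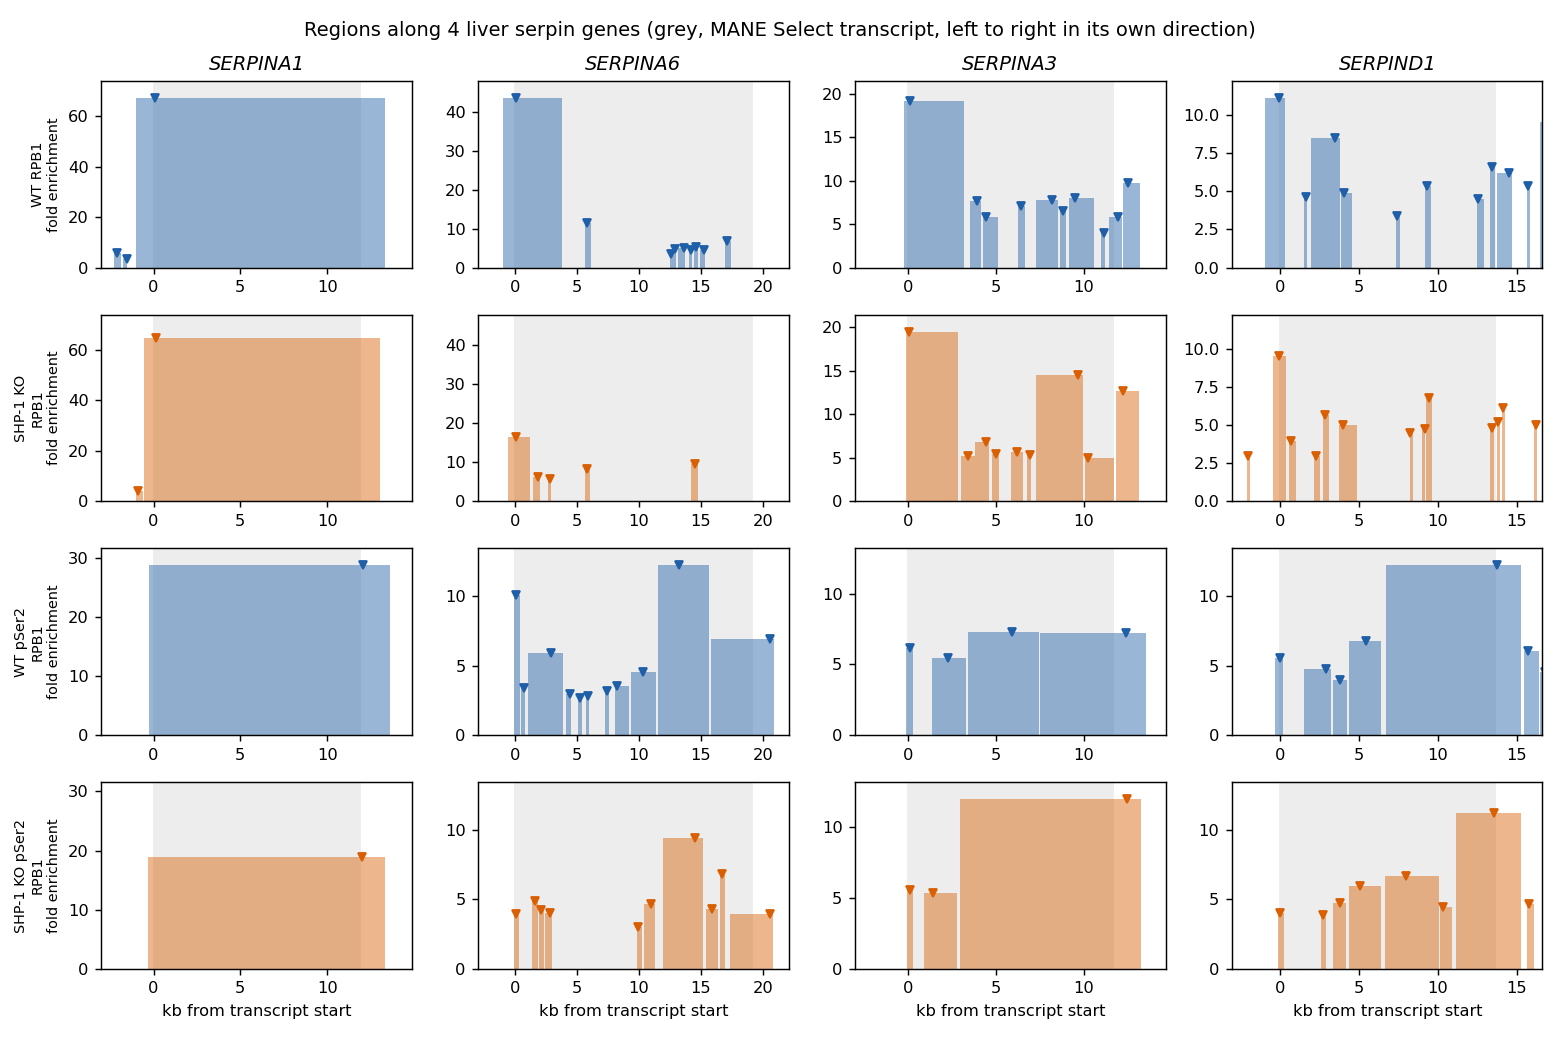
Regions along SERPINA1, SERPINA6, SERPINA3 and SERPIND1, drawn by distance in kb from the transcript start, with the gene in grey, for RPB1 (upper rows) and pSer2 RPB1 (lower rows) in WT (blue) and SHP-1 KO cells (orange). Each bar spans a region at the height of its summit's fold enrichment, not its coverage, and the triangle marks the summit. The highest RPB1 triangle sits at the start of every gene, and the highest pSer2 RPB1 triangle lies in the body or past the end.

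The pSer2 RPB1 results depend on which gene a region is given to, because the serpin genes have close or overlapping neighbours. Under the authors' assignment, 3 of 8 genes were at least 1.5-fold lower in KO cells, against 11.7% of all 10870 genes, and 1 was higher, against 5.71%. The 3 were SERPIND1 (12.2 in WT, 6.65 in KO, ratio 0.546), SERPINC1 (10.9 and 6.07, ratio 0.556) and SERPINA1, and the 1 that was higher was SERPINA5 (4.15 and 7.2, ratio 1.73). SERPINA1, with a ratio of 0.66, was close to the limit. Relative to the median over all genes its ratio was 0.705, no longer beyond 1.5-fold. When each gene was instead given the regions within 3000 bp of its MANE Select transcript, SERPINA1 alone was lower, against 12.4% of genes, and SERPINA3 alone was higher, against 5.67%. The RPB1 ratios were the same under both assignments, with 2 of 8 lower against 39.0% and none higher against 1.23% by location.

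Each change of call could be traced to a named region. For SERPINC1, the strongest WT region under the authors' assignment, 10.9 at chr1:173928462-173929758, lay 11.5 kb before the start. Within the gene the strongest pSer2 RPB1 region was 6.44 in WT and 6.07 in KO cells, a ratio of 0.942. For SERPIND1, which lies inside PI4KA on the other strand, 1 WT region of 8521 bp covered the second part of the gene and its end (chr22:20780822-20789342, 12.2). In KO cells the matching signal was split, and the region at the end, 11.2 at chr22:20785231-20789338, had been given to PI4KA, so that by location the ratio was 0.922.

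SERPINA5 and SERPINA3 follow each other on chromosome 14, and GENCODE lists a readthrough transcript, ENSG00000273259, that joins them. The strongest pSer2 RPB1 region at the end of SERPINA5 had been given to SERPINA3 in both lists. It reached 11.1 in WT (chr14:94589512-94594969) and 9.57 in KO cells (chr14:94592110-94594660), so that the ratio of SERPINA5 by location was 0.864 and not 1.73. At the start of SERPINA5, where both assignments gave the same region, pSer2 RPB1 was 3.51 in WT and 7.15 in KO cells, while RPB1 was 20.7 and 15.2 there.

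Without that region, SERPINA3 itself had 7.3 in WT and 12.0 in KO cells, a ratio of 1.65, at percentile 96.8 of all genes by location. The WT value lay at 50.9% of the gene, in a region next to one of 7.2 that ran past the gene's end. In KO cells 1 region of 10278 bp (chr14:94615366-94625643) took the place of both, with its summit at 107% of the gene. The strongest RPB1 region beyond the first kb of SERPINA3 was likewise higher in KO cells. It had 9.72 in WT, just past the gene, and 14.5 in KO cells, at 82.8% of it. This did not hold nearer the start. Regions with summits 3.4 to 6.9 kb into the gene had 5.8 to 7.71 in WT and 5.22 to 6.81 in KO cells. At the start both antibodies differed little between the cells (RPB1 19.2 and 19.5, pSer2 RPB1 6.18 and 5.59).

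In SERPINF2 the pSer2 RPB1 regions at the end of the gene had been given to SERPINF1, the next gene downstream, which encodes pigment epithelium-derived factor. By location the strongest was 10.3 in WT and 14.6 in KO cells, a ratio of 1.42, where the authors' assignment gave 8.64 and 7.26, a ratio of 0.84. At the start of SERPINF2 pSer2 RPB1 was 6.89 and 6.93, although RPB1 there was 66.5 in WT and 37.3 in KO cells. SERPINA6 had a lower value in KO cells at its start for both antibodies. Its pSer2 RPB1 at the start was 10.1 in WT and 3.94 in KO cells, and its strongest region, in the last part of the gene, was 12.2 and 9.38, a ratio of 0.771 under both assignments.

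SERPINA10 lies downstream of SERPINA6, with both genes on the minus strand. The strongest pSer2 RPB1 regions given to SERPINA10, 7.57 in WT and 6.83 in KO cells, lay 7.0 and 13.4 kb before its start, the second of them inside SERPINA6. Within 3000 bp of SERPINA10 the strongest region was at its start, 5.52 in WT and 6.26 in KO cells, a ratio of 1.13. It was the only one of the 8 genes in which pSer2 RPB1 was no stronger in the body than at the start in either kind of cell: regions about 4.3 kb into the gene had 5.19 in WT and 6.26 in KO cells.

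By location, the strongest pSer2 RPB1 summit lay more than 1 kb downstream of the strongest RPB1 summit in 7 of 8 genes in WT cells and in the same 7 in KO cells, SERPINA10 being the exception. Of all genes, 67.3% did so in WT and 66.2% in KO cells. Under the authors' assignment the count was 4 of 8 in WT cells, against 54.8%, and 7 of 8 in KO cells, against 53.4%, the genes that differed being SERPINA3, SERPINA5 and SERPINC1, whose WT region lay before the start. In SERPINA5 a region of equal fold enrichment (4.15) lay inside the gene, and with it the WT count was 5 of 8. The summit stood within 10% of the transcript's end in SERPINA1, SERPINA5, SERPIND1 and SERPINF2 in both cells. In SERPINA6 it stood at 69.3% and 75.9% of the gene, and in SERPINC1 at 36.3% and 38.9%.

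Regions of pSer2 RPB1 filled a large part of most of these genes. They covered at least 50% of the transcript in 7 of 8 genes in WT cells, against 12.9% of all genes with an RPB1 promoter region, and in 6 of 8 in KO cells, against 11.1%. The serpin genes are 11.7 to 19.1 kb long, shorter than the median of those genes (26.4 kb in WT, 26.6 kb in KO), and the part of length in this count was not tested. The count takes every region over a transcript, whichever gene it was given to. SERPIND1, covered over 86.3% in WT and 73.7% in KO cells, lies inside PI4KA, and the readthrough transcript ENSG00000273259 runs over SERPINA3. Signal of these overlapping units cannot be told apart from that of the serpin genes. SERPINA1 was covered in full, and SERPINA3 over 89.3% in WT and 93.5% in KO cells. SERPINA6 was covered over 80.7% in WT and 48.9% in KO cells, the widest gap of the 8. SERPINC1 had the lowest cover in both, 30.9% and 43.1%, and SERPINA10 had 50.9% and 66.4%.

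RPB1 regions reached 50% of the transcript in 4 of 8 genes in both kinds of cell, SERPINA1, SERPINA3, SERPINA5 and SERPINF2, against 9.95% of genes in WT and 8.52% in KO cells. SERPINF2 was the only gene in which RPB1 regions covered more than pSer2 RPB1 regions, 96.8% against 80.5% in WT and 84.2% against 61.8% in KO cells, and SERPINA1 was covered in full by both. In SERPINA6, SERPINA10, SERPINC1 and SERPIND1 they covered between 16.0% and 35.5%, and pSer2 RPB1 covered more of each of these 4 genes than RPB1 did in both kinds of cell.

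**Figure D4:**
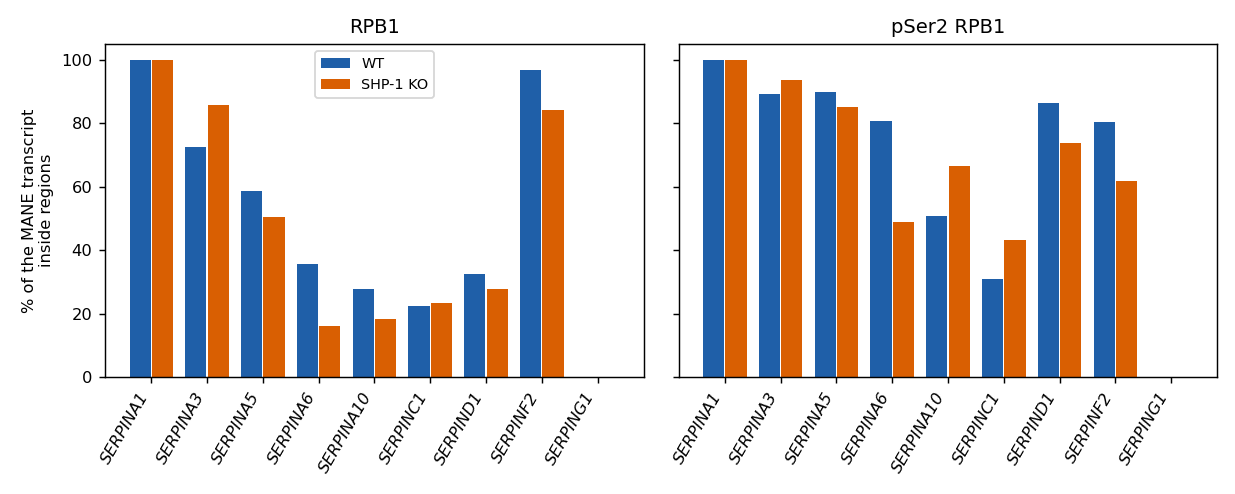
Percentage of each gene's MANE Select transcript that lay inside RPB1 regions (left) and pSer2 RPB1 regions (right), with 1 bar for the WT library and 1 for the SHP-1 KO library. SERPINA1 reaches 100% in all 4 lists, SERPING1 has no bar because it had no region, and SERPINA6 shows the widest gap for pSer2 RPB1 (80.7% and 48.9%).

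The identity of the cells was checked with marker genes. Of 10 hepatocyte genes, 9 had an RPB1 region in WT and 7 in KO cells, ALB with 24.4 and 24.1, AFP with 34.2 and 40.2. Of 5 leukocyte, 4 fibroblast and 3 endothelial genes, 3, 1 and 1 had one in WT and 2, 1 and 1 in KO cells. The defining genes PTPRC and CD3E of leukocytes, COL1A1 of fibroblasts and VWF of endothelium had no region in any list, whereas other genes of these lists had RPB1 regions in WT and KO cells, LYZ (39.2 and 36.0) and CD68 (30.4 and 26.9) of the leukocyte list, PDGFRB (17.3 and 14.5) of the fibroblast list and PECAM1 (7.44 and 7.87) of the endothelial list. PTPN6 had RPB1 regions in both, 24.0 and 17.2, and RPB1 at the gene says nothing of the SHP-1 protein.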

How the data were processed

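Chromatin of HepG2 cells was immunoprecipitated with antibodies to RPB1 or pSer2 RPB1, and the authors trimmed reads with Trimmomatic, aligned them to GRCh38/hg38 with BWA and called narrow peaks with MACS2, library by library, with the matching input DNA as background; tool versions and the peak threshold are not given in the sources used here. The deposited lists give each region's position, the fold enrichment over input at its summit (a ratio), p-value and q-value as −log10, a score made by the authors from the q-value, and the nearest gene. The smallest −log10 q-value was 1.31. The lists hold no read counts, so that depth, and with it precision, is unknown. A further deposited table holds the authors' own comparison of KO with WT (csaw windows with p-values) and was not used. The 2 inputs have no file among those used here.

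From these lists, ranks, KO to WT ratios of the strongest region per gene, overlaps of at least 1 bp and positions along MANE Select transcripts (GENCODE release 44) were computed in Python 3.11.15 with pandas 2.3.3. A gene was counted as lower or higher at 1.5-fold, with no test. Of 24 transcripts that the lists gave to the serpin genes, 23 were found in GENCODE, their ends differing by at most 6618 bp. Functions were tested on simulated regions. The genes given values are the 9 members, other serpins with a region, the strongest of their target proteases, and markers; a few listed genes without a region are named as such. The members and lists were chosen with earlier results of these data known.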

Additional observations from a re-analysis of the deposited data

How the results depend on the processing

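Of 48 recomputed summary values, 39 stayed within 1.5 times, though a count can stay while its genes change. With the strongest region that overlaps between the lists, 3 genes were still lower for pSer2 RPB1. SERPIND1 (ratio 0.922) was then no longer among them, and SERPINA10 (0.651) was. The number of genes with lower RPB1 in KO cells, 2, was 1 at a 2-fold limit and 1 after division by the median ratio of all genes; SERPINA6 was the gene that stayed. Ranking by percentile among genes, with 5 points as the limit, gave 1 gene higher for RPB1 in place of 0. For pSer2 RPB1 the counts of 3 lower and 1 higher became 0 and 0 at 2-fold, and 1 lower by location. After division by the median ratio of all genes 2 were lower, SERPINA1 (0.705) being the gene that fell out. SERPINA5 turned direction by location, to a ratio of 0.864, because the region at its end had been given to SERPINA3. The number of genes with the pSer2 RPB1 summit downstream, 4 in WT cells, was 7 by location and 5 when the more downstream of a pair of equal SERPINA5 regions was taken, a choice added after seeing the data, and with the region of highest −log10 q-value in place of highest fold enrichment it was 2 in WT and 4 in KO cells; the cause of the latter was not tested. A −log10 q-value of at least 5 moved no count by over 1.5 times, but it removed many regions. RPB1 regions fell from 73 to 49 in WT and from 64 to 43 in KO cells. The pSer2 RPB1 regions fell from 62 to 49 and from 69 to 51. Counting identical intervals once changed no number of regions. Fold enrichment in a ratio of 2 libraries also depends on the depth of each library and its input, which could not be varied here. No paired analysis was possible because each group has 1 library and the result comes from no test.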

Other observations

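Among 27 other serpin genes, 15 had an RPB1 region in WT and 15 in KO cells, and 14 and 9 had a pSer2 RPB1 region. The strongest RPB1 values were those of SERPINB9, an intracellular inhibitor of granzyme B (73.1 in WT, 52.0 in KO), SERPINF1 (56.6 and 35.3), SERPINB1 (53.4 and 30.3) and SERPINH1, a collagen chaperone (51.4 and 37.4). Of the 14 with an RPB1 region in both lists, 6 were at least 1.5-fold lower in KO cells and 1 was higher, with a median ratio of 0.701, beside 36.1% lower, 2.68% higher and a median of 0.742 over all genes. Of the chromosome 14 cluster, RPB1 in WT and KO cells was 18.3 and 10.5 at SERPINA11, 10.2 and 5.92 at SERPINA2, 7.46 and 6.21 at SERPINA9, and 5.61 and 5.06 at SERPINA12, and SERPINA4 had 5.54 in WT and no region in KO cells. SERPINB2, SERPINB3, SERPINB4 and SERPINB5 had no region in any list.

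Of 15 proteases on which the liver serpins act, 10 had an RPB1 region in WT and 8 in KO cells. F10, the gene of factor X, was the strongest in WT cells, with 42.0, and had 20.4 in KO cells. F2, the gene of prothrombin, had 34.8 and 33.0, and its pSer2 RPB1 was 14.0 and 13.2. Of the 8 with an RPB1 region in both lists, 4 were at least 1.5-fold lower in KO cells and none was higher, beside 36.1% and 2.68% of all genes. ELANE and CTSG, the neutrophil proteases that SERPINA1 and SERPINA3 inhibit, had no region in any list.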
